A study of Rattus norvegicus with 18 samples.

Results

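Muscle of p16-null DMD rats was set against muscle of wild-type (WT) rats at 9 months of age. The comparison holds 6 libraries titled dKO, from rats of the genotype p16-null DMD, and 3 WT libraries, which together are 9 of the 18 libraries of the series. RNA came from the tibialis anterior, a shin muscle built mainly of fast fibres, and was sequenced in bulk, with 9607819 to 15803528 counts in a WT library and 10783536 to 21992631 in a p16-null DMD library. The other libraries are 3 of DMD rats at 9 months, used below where a difference between the dystrophic genotypes had to be tested, and 3 each of WT rats at 3 and 18 months. All genes that passed a filter on low counts were taken, which left 14801 of the 30560 entries of the table. DMD rats are a model of Duchenne muscular dystrophy. The p16-null DMD rats carry the DMD genotype and also lack p16 by their label, so what each of these changes contributes to a difference from WT cannot be told apart in this comparison. The alleles, the strain and sex of the rats and any sequencing batch are not given by the sources used here. Only the titles tell the libraries of a group apart, and none names a rat, so p-values measure the spread among libraries, which may be technical.

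Dystrophin ties the cytoskeleton of the muscle fibre to the matrix around it. Fibres without it are damaged by contraction, and the muscle passes through repeated rounds of fibre death, inflammation and regeneration while connective tissue and fat build up in place of fibres. The inhibitor p16, a product of Cdkn2a, holds cells out of the cell cycle and is widely used as a marker of senescent cells.

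Levels are in CPM, counts divided by the library total and put on one scale per library by TMM, a method that assumes most genes do not differ. Changes are log2 fold changes of p16-null DMD against WT with their standard error (SE), from the edgeR quasi-likelihood fit. A gene is said to have risen or fallen where its Benjamini-Hochberg adjusted p over all 14801 genes was under 0.05. For each gene the 3 WT values are given in the order of the replicates, and the 6 p16-null DMD values as the lowest, the median and the highest.

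About equal numbers of genes lay above and below their WT level, but the large changes were mostly rises. Of the 14801 genes 50.2% passed the test, 27.5% (4073 genes) as rises and 22.7% (3359 genes) as falls. At 2-fold or more the counts were 2776 rises (18.8%) and 1445 falls (9.76%). At 4-fold or more they were 1264 rises and 214 falls, and at 16-fold or more 268 and 10. These counts use the fitted changes. For 128 genes with no count in WT or none in p16-null DMD the fitted size is uncertain and only a bound can be given. Some of them, such as Il6, count at 16-fold or more although the bound given below is smaller. A gene could also pass the filter on the libraries of a single genotype. In 23.9% of genes every p16-null DMD library lay above every WT library, and in 21.3% every one lay below. The median log2 fold change over all genes was 0.11, with quartiles of -0.47 and 0.84. In bulk RNA, fewer cells of a type and less RNA per cell cannot be told apart.

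The direction of a small change depends on the scaling. The 50 most abundant genes took 48.7 ± 1.89% (SD, n = 3) of the counts in WT and 33.7 ± 3.24% (SD, n = 6) in p16-null DMD, and TMM factors were 0.687 to 0.761 in WT and 0.998 to 1.19 in p16-null DMD. With library totals in place of TMM the median gene stood at 0.72, and 8071 genes passed as rises and 1251 as falls. With TPM, the length-scaled values also deposited, the median stood at 0.64, with 8818 rises and 983 falls. All 4073 rises were kept under library totals, while 1251 of the 3359 falls were kept. Changes below are under TMM, and a named gene whose direction turned with library totals or TPM is marked, as is the median of a list.

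The edited genes and the 4 genes that mark the comparison were read library by library. Dmd, which encodes dystrophin, stood at 120.5, 147.4 and 176.4 CPM in WT and at 38.8, 47.4, 52.6, 41.3, 32.5 and 58.5 CPM in p16-null DMD replicates 1 to 6, a log2 fold change of -1.71 ± 0.18 (adjusted p = 3.1e-06). Every p16-null DMD library lay below every WT library, and transcripts of the gene were still counted in all 6.

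Cdkn2a was nearly silent in WT, with 0, 0.143 and 0.194 CPM from 3 counts in all. It stood at 10.6, 12.9, 12.9, 16, 13.0 and 12.7 CPM in p16-null DMD. The ratio was 125.2 (adjusted p = 2.4e-07) with a 95% counting interval of 42.7 to 607.7, which covers counting error only, and the fitted log2 fold change of 6.81 became 7.64 without WT replicate 3. Counts of this gene pool the transcripts of p16 and of Arf, another protein read from the same locus in a different frame, so they do not check the label p16-null. In the DMD libraries, which are not labelled p16-null, it stood at 11.5, 20.4 and 13.3 CPM.

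Spp1 encodes osteopontin, a secreted matrix protein made by macrophages in damaged muscle. It stood at 3.60, 2.71 and 3.97 CPM in WT and at 1252, 259.8, 83.0, 441.4, 709.9 and 111.6 CPM in p16-null DMD, a rise of 7.10 ± 0.95 (adjusted p = 2.5e-05). All 6 libraries were far above WT, and they differed among themselves, with replicates 1 and 5 highest and replicates 3 and 6 lowest. Mmp12, macrophage elastase, had no counts in any WT library and stood at 6.74, 7.65, 1.35, 7.02, 7.78 and 4.64 CPM, at least 54.1-fold higher (adjusted p = 2.2e-05) against a floor of 3 counts over the WT group. Replicate 3 was lowest for this gene too. Gdf5, a ligand of the bone morphogenetic protein (BMP) family known to counter loss of denervated muscle, also had no counts in WT. It stood at 1.46, 2.52, 8.13, 7.06, 1.66 and 12.9 CPM, at least 57.0-fold higher (adjusted p = 0.00029). Its order differed, with replicates 6, 3 and 4 highest and replicates 1, 5 and 2 lowest.

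Aqp4, the water channel that sits with the dystrophin complex on the membrane of fast fibres, stood at 202.3, 208.7 and 188.4 CPM in WT. In p16-null DMD it stood at 5.603, 4.51, 0.739, 13.0, 6.12 and 1.48 CPM, a log2 fold change of -5.22 ± 0.54 (adjusted p = 3.1e-06). Replicates 3 and 6 held the least and replicate 4 the most, and no library came near WT. All 4 marker genes lay outside the WT range in all 6 libraries. At other ages of WT muscle, TPM of Gdf5 was 5.48, 7.84 and 10.02 in the 3 libraries of 18 months and 0.33, 0 and 0 at 3 months. TPM of Aqp4 was 10.5, 23.8 and 18.9 at 18 months, 46.2, 53.0 and 42.0 at 3 months and 41.4, 41.4 and 42.1 at 9 months. TPM of Dmd in WT was 12.76, 10.79 and 8.58 at 3 months and 12.38, 13.37 and 17.98 at 9 months. At 18 months it was 26.16, 22.92 and 18.02. In p16-null DMD it ran from 6.88 to 12.28 and so overlapped WT of 3 months. TPM of Spp1 was 13.27, 24.86 and 61.05 in WT of 18 months and 112.68 to 1685.55 in p16-null DMD. Mmp12 reached at most 0.35 in WT of any age.

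**Figure D1:**
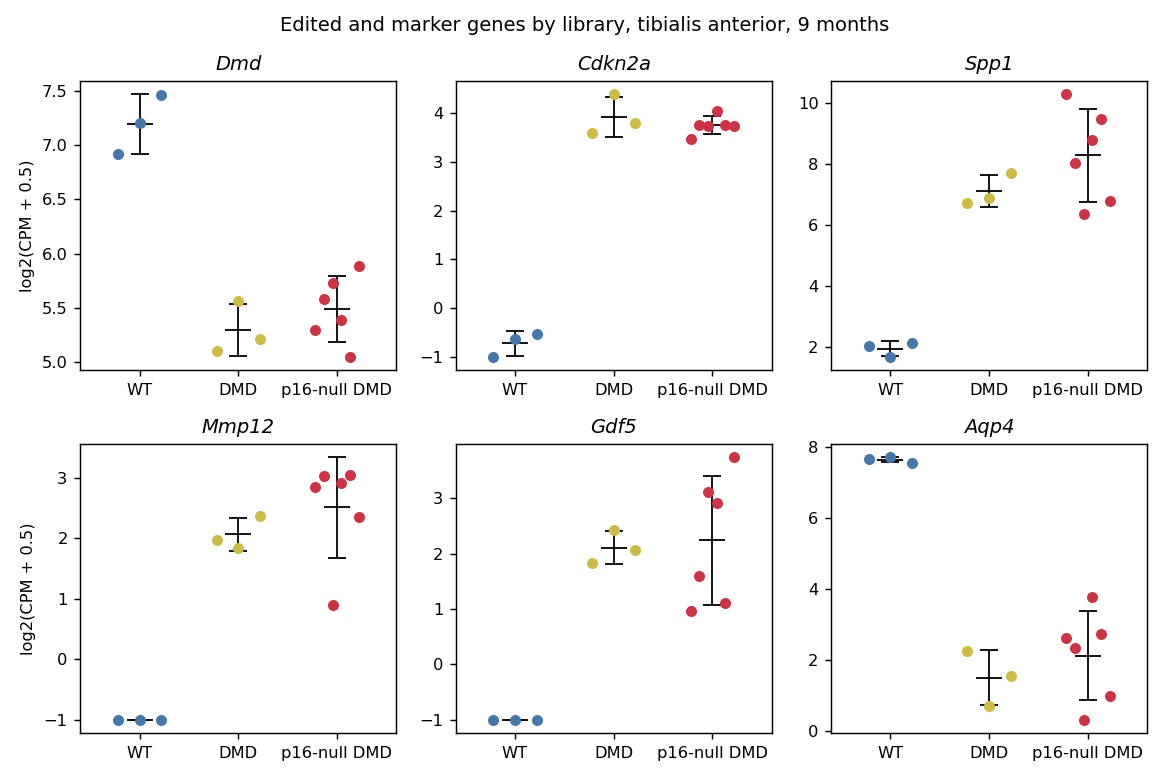
Levels of the edited genes and the 4 marker genes as log2(CPM + 0.5) in each 9-month library, with points for libraries and bars for mean ± SD (WT n = 3, DMD n = 3, p16-null DMD n = 6). The p16-null DMD points lie outside the WT points in every panel, with the widest spread in Spp1, Gdf5 and Aqp4.

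A single gene separated p16-null DMD from DMD in the same fit, and it also separated p16-null DMD from WT. AC239701.1, an entry with no function given in the files (ENSRNOG00000060437), held 5.90, 6.57 and 5.62 CPM in WT and 8.81, 5.12 and 9.63 CPM in DMD. In p16-null DMD it held 1 count over the 6 libraries, in replicate 4. WT was 532 times higher (95% counting interval 94.2 to 21140, adjusted p = 1.9e-07), and the difference from DMD had an adjusted p of 4.7e-07. It was chosen after its values were seen, its position is not given in the tables used here, and it lies outside the rule for named genes. It was 1 of 14801 genes (0.00676%) in that comparison, in which 764 genes had an unadjusted p under 0.05 and DESeq2 called 15. The count was 85 without DMD replicate 1 and 2 when either DMD replicate 3 or p16-null DMD replicate 2 was left out.

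Promoter sequences are shown for 4 genes that rose, a pair known from macrophages and a pair of embryonic sarcomere genes, because each holds letters known as a binding motif. They come from RefSeq (build GRCr8), run from upstream of the annotated start to just past it, and are written along the strand of the gene. The files were made with another build, so these coordinates belong to the RefSeq table. Mmp12 lies at chr8:12866402-12866701 (+), Cd68, a lysosomal protein of macrophages, at chr10:54882392-54882691 (-), Myl4, the embryonic and atrial essential light chain of myosin, at chr10:89975900-89976199 (+) and Tnnt2, cardiac troponin T, at chr13:49818873-49819172 (+). Capitals mark TGANTCA, the letters bound by AP-1 factors, in the first pair and CAGCTG, an E-box of the kind read by myogenic factors, in the second pair.
Mmp12: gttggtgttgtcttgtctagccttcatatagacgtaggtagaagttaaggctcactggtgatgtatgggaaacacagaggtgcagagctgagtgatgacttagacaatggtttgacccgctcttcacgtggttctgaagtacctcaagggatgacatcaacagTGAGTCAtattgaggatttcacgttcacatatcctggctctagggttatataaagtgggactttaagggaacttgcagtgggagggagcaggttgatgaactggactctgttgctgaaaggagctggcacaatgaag
Cd68: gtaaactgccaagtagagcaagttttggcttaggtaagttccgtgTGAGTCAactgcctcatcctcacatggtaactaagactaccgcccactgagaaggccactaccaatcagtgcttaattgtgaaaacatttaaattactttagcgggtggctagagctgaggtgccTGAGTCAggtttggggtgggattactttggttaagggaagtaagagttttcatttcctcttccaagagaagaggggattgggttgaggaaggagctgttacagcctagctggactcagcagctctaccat
Myl4: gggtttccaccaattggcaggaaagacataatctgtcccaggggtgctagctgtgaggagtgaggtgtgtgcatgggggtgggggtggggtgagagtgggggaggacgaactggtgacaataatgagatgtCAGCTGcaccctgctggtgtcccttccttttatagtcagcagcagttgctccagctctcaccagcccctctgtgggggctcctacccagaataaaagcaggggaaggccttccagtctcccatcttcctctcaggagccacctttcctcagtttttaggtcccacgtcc
Tnnt2: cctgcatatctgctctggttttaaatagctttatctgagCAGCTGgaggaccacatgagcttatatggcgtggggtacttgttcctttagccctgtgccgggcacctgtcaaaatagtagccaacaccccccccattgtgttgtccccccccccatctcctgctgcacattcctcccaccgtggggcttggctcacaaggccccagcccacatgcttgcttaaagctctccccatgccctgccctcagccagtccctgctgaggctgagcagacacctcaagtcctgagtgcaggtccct
The match in Mmp12 starts 87 bases before the annotated start, those in Cd68 205 and 80 bases, that in Myl4 119 and that in Tnnt2 211. Both motifs read the same on the other strand and do not overlap each other. Among all 33469 promoters 7.33% held TGANTCA and 15.1% held CAGCTG. Of 10256 tested genes with a promoter the shares were 4.98% and 16.5%, of 816 genes that rose at least 4-fold 8.21% and 18.6%, and of 129 that fell at least 4-fold 2.33% and 24.8%. A match is a description of letters and shows no binding.

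The genes with the largest rises were close to absent from WT. Tnn, tenascin-N, a matrix glycoprotein of bone-forming and scar tissue, had 0 counts in WT and 19.9, 22.3 and 45.0 CPM in p16-null DMD, at least 268.6-fold higher. Clec2dl1, a C-type lectin-like gene with close relatives that reads may not tell apart, was at least 93.4-fold higher at 4.72, 8.81 and 18.9 CPM. Ptprv, a receptor-type phosphatase known as a p53 target, was at least 81.4-fold higher at 4.87, 8.93 and 11.3 CPM. Cd5l, a scavenger protein secreted by macrophages, was at least 50-fold higher at 2.52, 4.59 and 11.8 CPM. These 4 genes had no count in any WT library and counts in all 6 p16-null DMD libraries. The rule for naming by size asked for groups that do not overlap, so counts in all 6 follow from it. Adjusted p-values were 5.3e-07, 6.3e-06, 5.3e-07 and 3.8e-05.

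Sohlh2, a transcription factor best known from germ cells, held 1 count in WT and 3.41, 18.9 and 40.5 CPM in p16-null DMD, a ratio of 611.4 (95% counting interval 109.6 to 24160). Its fitted log2 fold change of 8.84 became 11.19 without WT replicate 2. Ighg1, an immunoglobulin heavy chain constant gene of plasma cells, stood at 0.184, 0.143 and 0.194 CPM and 1.22, 21.5 and 211.2 CPM, a rise of 8.32 ± 2.12 (adjusted p = 0.0043) that became 7.29 without p16-null DMD replicate 6. Among the 6 dystrophic libraries Ighg1 had by far the widest spread of these genes, while Tnn and Ptprv kept within a narrow range.

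The largest falls were smaller in size than the largest rises. Barx2, a homeobox factor of muscle growth, stood at 18.0, 27.1 and 9.00 CPM in WT and at 0, 0 and 0.406 CPM in p16-null DMD, a log2 fold change of -7.47 ± 0.72 (adjusted p = 1.7e-06; -8.53 without replicate 1 of that group). Unc5a, a netrin receptor, went from 37.4, 20.1 and 21.6 CPM to 0.230, 1.08 and 1.59 CPM (-4.70 ± 0.42). Mettl11b, a methyltransferase of protein N-termini, went from 16.7, 22.4 and 22.9 CPM to 0, 0.623 and 2.19 CPM (-4.47 ± 0.62). With Aqp4 these were the 4 lowest log2 fold changes among genes eligible for naming. Cd24, a small surface glycoprotein, fell from 386.1, 274 and 333.1 CPM to 5.79, 18.6 and 40.0 CPM (-3.97 ± 0.48), and Susd4, a regulator of complement, from 53.3, 39.4 and 45.6 CPM to 1.69, 3.79 and 6.03 CPM (-3.68 ± 0.28).

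Ranked by the smallest p, which weighs a change against its SE, other genes came first than by size alone. Bgn, biglycan, a small proteoglycan of scar matrix, stood at 54.8, 51.5 and 73.7 CPM and 463.8, 504 and 635.1 CPM, a rise of 3.16 ± 0.20 (adjusted p = 1.9e-07). Ssc5d, a secreted scavenger receptor protein, stood at 8.39, 8.85 and 9.58 CPM and 45.3, 48.2 and 57.9 CPM (2.47 ± 0.14). Cilp, a matrix protein of cartilage and fibrotic tissue, stood at 27.8, 30.4 and 25.9 CPM and 287.5, 410.4 and 563.7 CPM (3.91 ± 0.24). The 6 libraries of each of these genes lay within a 2-fold range. All lay above WT, which the rule for naming by p required. Mfap4, a protein of elastic microfibrils (3.19 ± 0.22), Abcg1, a cholesterol exporter of macrophages and other cells (2.91 ± 0.19), and Otulinl (3.08 ± 0.22) belonged to the same group. Myh3, the embryonic myosin heavy chain, was also among the 8 rises with the smallest p, with the largest change of those and an SE above the median of all genes. It stood at 3.32, 1.28 and 1.06 CPM in WT and 132, 248.2 and 401.6 CPM in p16-null DMD, a rise of 7.05 ± 0.49 (adjusted p = 2.8e-07) that became 7.79 without WT replicate 1.

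Among the falls with the smallest p, Homer1, a scaffold of calcium signalling, stood at 53.7, 67.9 and 66.4 CPM and 12.3, 15.0 and 16.2 CPM (-2.08 ± 0.13, adjusted p = 1.9e-07). Ppp1r1a, an inhibitor of protein phosphatase 1 abundant in fast fibres, stood at 227.4, 189.8 and 202.9 CPM and 16.1, 19.2 and 32.6 CPM (-3.23 ± 0.20). Neither gene overlapped WT, which the rule for naming by p required. Adcy1, an adenylyl cyclase (-3.87 ± 0.25), Adhfe1, a mitochondrial oxidoreductase (-2.75 ± 0.17), Fads6, a desaturase-like protein (-2.79 ± 0.18), Ccdc181 (-2.65 ± 0.18) and Ghitm, a protein of the inner mitochondrial membrane (-1.56 ± 0.11), were also among the 8 falls with the smallest p. The median SE over all genes was 0.225 for p16-null DMD against WT. For DMD against WT, with 3 libraries and the same WT controls, it was 0.260, and 14765 of 14801 genes had the smaller SE with the larger group. The groups share a single estimate of the spread of each gene in this fit. The smaller SE therefore follows from the number of libraries and is not a result about the genes.

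**Figure D2:**
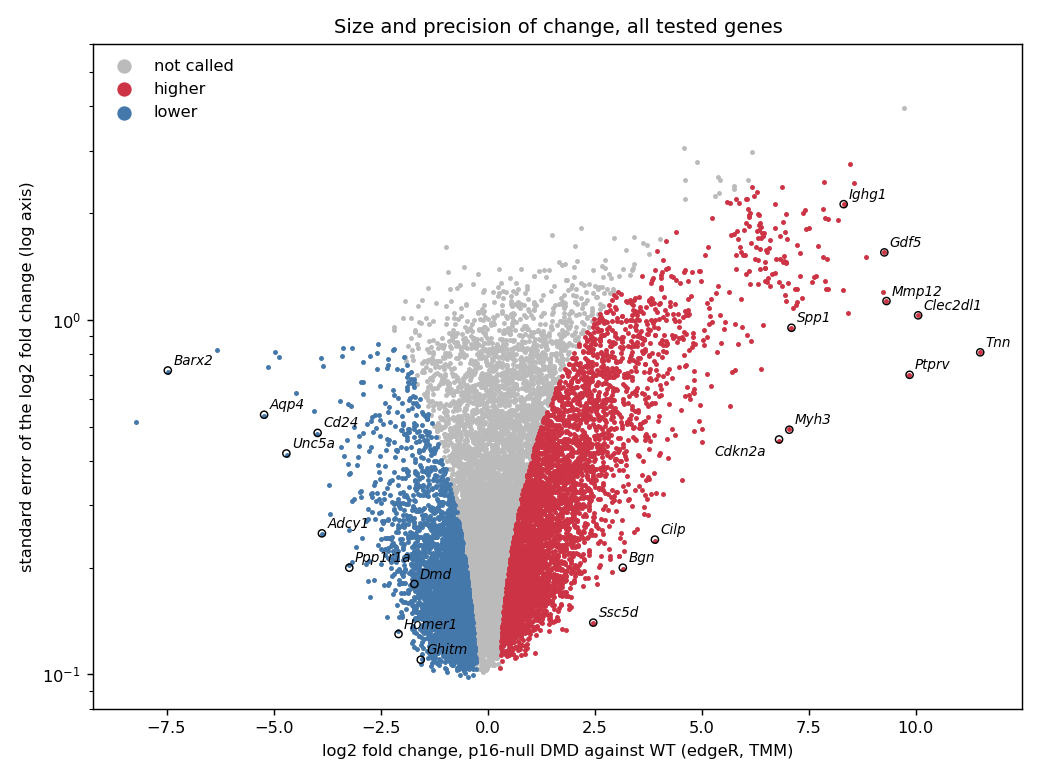
Each tested gene is placed by its log2 fold change of p16-null DMD against WT (x axis) and the SE of that change (y axis, log scale), with rises in red, falls in blue and the rest in grey. The largest rises carry SEs from 0.70 for Ptprv to 2.12 for Ighg1, while Bgn, Ssc5d, Homer1 and Ghitm combine a smaller change with SEs of 0.20 or less.

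The 6 dystrophic libraries agreed closely on some large changes and poorly on others. Dtnb, beta-dystrobrevin, the relative of the muscle alpha form, kept to 4.67, 5.43 and 5.79 CPM against 0.830, 1.43 and 0.774 CPM in WT (2.42 ± 0.32). Asb15, a muscle ubiquitin ligase adaptor, kept to 8.28, 9.29 and 10.98 CPM against 38.9, 33.5 and 40.3 CPM (-2.01 ± 0.15). These genes, with Homer1 and Ssc5d, were among the 5 with the smallest SD on the log2 scale among genes changed at least 4-fold. The largest SDs belonged to Ighg1, Spp1 and 3 others. Plin1, which coats the lipid droplet of fat cells, ran over 9.75, 68.0 and 157.4 CPM against 6.64, 4.42 and 7.36 CPM (3.51 ± 0.78, adjusted p = 0.0017), and Retn, the adipokine resistin, over 3.74, 24.7 and 52.4 CPM against 2.95, 1.14 and 3.00 CPM (3.41 ± 0.84). Hnf4a, a nuclear receptor of liver and gut, ran over 0.487, 7.73 and 19.9 CPM against 2 counts in WT, a ratio of 126.2 (95% counting interval 34.8 to 1043), with a fitted log2 fold change of 6.73 that became 6.10 without WT replicate 1. Over the 11717 genes with a mean log2 CPM of 2 or more the median SD was 0.258 in p16-null DMD and 0.204 in WT.

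Most listed matrix genes rose. All 20 tested members of the list of fibrillar and network collagens rose, with a median log2 fold change of 2.24, where 27.5% of all genes rose and the median was 0.11. Col1a1, the main chain of type I collagen, stood at 412, 254.2 and 314.2 CPM in WT and at 1409, 2596 and 5238 CPM in p16-null DMD (3.11 ± 0.40, adjusted p = 1.9e-05). Col14a1, a collagen on the surface of fibrils, stood at 40.9, 46.4 and 44.7 CPM and 226.7, 337 and 421.4 CPM (2.91 ± 0.31). No dystrophic library overlapped WT for either gene. The list does not hold every collagen. Among all 39 tested genes with a collagen symbol 30 rose and 2 fell, Col7a1 of anchoring fibrils (-2.09) and Col4a3, a network collagen (-1.84). Of 28 matrix glycoproteins and proteoglycans 27 rose and none fell (median 1.98). Postn, periostin, which organises scar matrix, stood at 30.1, 20.4 and 47.4 CPM and 325, 438.4 and 596.6 CPM (3.76 ± 0.28). The member that did not pass was Fmod, fibromodulin, at 0.28 (-0.03 without WT replicate 3).

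Most genes that finish and remodel the matrix rose. Of 18 genes of collagen cross-linking and processing 16 rose and 1 fell (median 1.43). Loxl1, a lysyl oxidase that cross-links elastin, stood at 11.6, 8.28 and 9.20 CPM and 69.2, 98.5 and 140.8 CPM (3.43 ± 0.25), while P4ha1, a prolyl hydroxylase of collagen, stood at -0.44, a fall that did not pass without WT replicate 2 or 3 or without p16-null DMD replicate 2, 3, 5 or 6 and that turned to 0.16 with library totals. Of 27 matrix proteases and inhibitors 21 rose and 2 fell (median 2.23). Mmp2, gelatinase A, stood at 152.9, 128.9 and 146.4 CPM and 507.2, 683.5 and 795.6 CPM (2.23 ± 0.18), and Timp1, an inhibitor of metalloproteinases, at 5.35, 7.42 and 6.58 CPM and 46.7, 120.5 and 175.2 CPM (4.21 ± 0.41). Both genes lay above WT in all 6 libraries, as did 18 of the 27. The 2 falls were Mmp15 (-0.79) and Timp4 (-0.71), which stood at -0.19 and -0.10 with library totals and did not pass. None of the list fell without WT replicate 1, and 1 fell without WT replicate 2 or 3 or p16-null DMD replicate 1, 2, 4 or 6.

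Markers of fibro-adipogenic progenitors, the stromal cells that make much of this matrix, rose in 18 of 24 tested and fell in none (median 1.35). Pdgfra, their defining receptor, stood at 43.0, 49.5 and 57.2 CPM and 140.2, 176.1 and 285.1 CPM (1.95 ± 0.24), and Sfrp2, a secreted Wnt modulator, at 4.33, 1.43 and 2.42 CPM and 47.6, 133.9 and 324.3 CPM (5.77 ± 0.72). Both were above WT in all 6 libraries. The share these cells have in the rise of the collagens was not tested.

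Of 30 genes of TGF-beta and activin signalling, which drives fibrosis and limits muscle growth, 14 rose and 4 fell (median 0.56). Among ligands, Tgfb1 stood at 14.8, 9.42 and 9.20 CPM and 26.8, 48.0 and 64.4 CPM (2.06 ± 0.29), while Mstn, myostatin, which restrains muscle growth, stood at 14.8, 23.4 and 37.4 CPM and 1.05, 1.54 and 5.33 CPM (-3.43 ± 0.44). Ltbp2, a relative of the latent TGF-beta binding proteins, rose by 3.77 ± 0.36 from 1.66, 0.714 and 1.55 CPM to 11.3, 18.6 and 27.5 CPM. Ligands of the same superfamily thus went opposite ways. Fst, follistatin, which binds myostatin and activins, rose from 10.9, 12.3 and 9.88 CPM to 16.3, 33.7 and 51.4 CPM (1.64 ± 0.30). Ccn2, connective tissue growth factor and a target of the pathway, rose from 81.5, 132 and 105.1 CPM to 290.1, 504.5 and 880.2 CPM (2.40 ± 0.32). The receptor Tgfbr2 rose by 1.44 and the transducer Smad3 fell by 1.21. Without WT replicate 3 the list had 2 falls.

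The BMP list, which holds Gdf5, had 12 rises and 3 falls among 27 tested genes, and its median of 0.12 was close to that of all genes. Gdf6, the nearest relative of Gdf5, had no count in WT and 0.459, 1.14 and 1.54 CPM in p16-null DMD, at least 10.2-fold higher. Id3, a target gene of BMP signalling, rose from 49.1, 24.98 and 26.8 CPM to 50.5, 75.5 and 82.0 CPM (1.09 ± 0.23).

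Every tested macrophage marker rose, 28 of 28, with a median of 2.44. Lyz2, lysozyme, stood at 157.6, 136.6 and 143.3 CPM in WT and 729.2, 1139 and 2523 CPM in p16-null DMD (3.17 ± 0.38, adjusted p = 9.8e-06). Cd68, whose promoter is shown above, stood at 7.28, 6.71 and 4.07 CPM and 32.6, 58.2 and 120.5 CPM (3.46 ± 0.46), and Mrc1, the mannose receptor of resident and repair macrophages, at 30.1, 39.4 and 50.8 CPM and 172.2, 211.4 and 283.6 CPM (2.46 ± 0.28). The summed TPM of the list was 460.8 to 573.9 in WT and 3584 to 9944 in p16-null DMD. Of 21 genes of lipid-handling macrophages 15 rose and 1 fell (median 2.13). Gpnmb, a membrane glycoprotein of such cells, stood at 73.9, 27.0 and 50.7 CPM and 253.6, 538.6 and 1034 CPM (3.53 ± 0.50). Apoe, which carries lipid out of cells, stood at 424.5, 333.3 and 323 CPM and 2013, 3132 and 3925 CPM (3.10 ± 0.24), and the member that fell was Syngr1, a vesicle protein, by 2.17.

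Lymphoid genes rose from a low base. Among markers of T, B, NK and plasma cells 10 of 18 rose and none fell (median 2.08), with a summed TPM of 15.4 to 16.9 in WT and 88.0 to 132.8 in p16-null DMD. Cd3e, part of the T cell receptor complex, held 1 count in WT and 0.369, 1.90 and 3.67 CPM in p16-null DMD, a ratio of 53.4 (95% counting interval 9.45 to 2120, fitted 5.42 and 7.79 without WT replicate 2). Jchain, the joining chain of antibodies, held 3 counts in WT and 2.84, 6.66 and 15.0 CPM, a ratio of 77.0 (95% counting interval 26.3 to 374.5, fitted 6.06 and 9.74 without WT replicate 3). The B cell markers Cd79a and Ms4a1 did not pass the count filter. Of 17 neutrophil and mast cell markers 10 rose (median 2.21).

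Complement and antigen presentation genes rose in 25 of 28 tested (median 1.74), and Cd55, which protects cells from complement, fell by 1.21. Cfb, factor B of the alternative pathway, stood at 69.4, 61.2 and 81.3 CPM and 364.6, 392.6 and 518.8 CPM (2.59 ± 0.20). Interferon-response genes rose in 12 of 27 (median 0.90), among them Irf8, a transcription factor of macrophages and dendritic cells, at 8.48, 10.1 and 8.04 CPM and 28.9, 41.0 and 75.3 CPM (2.33 ± 0.32). Isg15, a standard interferon target, did not pass at 0.27 (-0.26 without WT replicate 3 and 1.07 without WT replicate 2). Among 29 cytokines and chemokines 21 rose and 1 fell (median 1.83). Cxcl16, a chemokine that is also a scavenger receptor, stood at 9.40, 8.99 and 7.75 CPM and 27.8, 36.3 and 48.7 CPM (2.12 ± 0.19), and Ccl2, which recruits monocytes, at 1.75, 3.00 and 4.36 CPM and 9.48, 27.4 and 47.0 CPM (3.19 ± 0.70). The member that fell was Il15, a cytokine made by muscle, by 1.28 (-0.46 by limma on log2(TPM + 1), which did not pass).

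Il6, an inflammatory cytokine and myokine, had no count in WT and 0.487, 1.27 and 3.38 CPM in p16-null DMD, at least 14-fold higher (adjusted p = 0.0077, 0.053 by limma on log2(TPM + 1)). In DMD it stood at 1.76, 30.2 and 16.6 CPM. The fitted difference between the dystrophic groups was -3.41 ± 0.64 and did not pass (adjusted p = 0.28). Socs3, a feedback inhibitor of the Il6 pathway, stood at 14.5, 14.7 and 13.8 CPM in WT, 37.0, 99.1 and 171.1 CPM in p16-null DMD (2.76 ± 0.60) and 64.2, 488.6 and 387.9 CPM in DMD, with a difference of -1.70 ± 0.48 between the dystrophic groups (adjusted p = 0.53). In both genes DMD replicate 1 lay inside the p16-null DMD range and DMD replicates 2 and 3 above it.

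Senescence and cell cycle arrest genes rose in 18 of 25 and fell in 2 (median 1.26). The falls were Cdkn1b, the inhibitor p27 (-0.87), and Rbl2 (-0.78), and no member fell with library totals or TPM. Rises were counted whatever the direction expected of a member in senescent cells, and Lmnb1, lamin B1, was among them (1.26). Cdkn1a, the inhibitor p21, stood at 26.3, 10.99 and 16.6 CPM and 67.2, 135.6 and 218.6 CPM (2.97 ± 0.40), and Cdkn2b, the inhibitor p15 encoded beside Cdkn2a, at 3.87, 2.71 and 5.03 CPM and 17.8, 31.9 and 46.8 CPM (3.02 ± 0.33). Glb1, the lysosomal beta-galactosidase read in senescence staining, stood at 10.3, 10.6 and 11.5 CPM and 28.6, 45.5 and 64.4 CPM (2.09 ± 0.24). In the same libraries proliferation genes rose in 24 of 32 and fell in 2 (median 2.18; 1 fall without WT replicate 2). Top2a, a topoisomerase of dividing cells, stood at 0.461, 0.285 and 0.387 CPM and 2.03, 7.76 and 12.8 CPM (4.31 ± 0.69), and Mki67, the Ki-67 antigen, at 1.11, 1.14 and 1.74 CPM and 3.63, 13.6 and 19.5 CPM (3.25 ± 0.51). Tpx2, a spindle protein, went the other way, from 85.7, 68.9 and 101.7 CPM to 3.26, 8.28 and 17.0 CPM (-3.25 ± 0.39), and had the smallest p of that list. Several inhibitors of division and most listed genes of dividing cells were thus high in this tissue. Bulk RNA does not place them in the same or in different cells.

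Most listed genes of newly formed fibres rose. Of 27 tested members of the list of embryonic and regenerating fibres 17 rose and 4 fell (median 1.70), and none of the 4 falls passed with library totals. Besides Myh3, Actc1, cardiac actin, which is used in fetal muscle, stood at 25.3, 32.8 and 12.6 CPM and 300.4, 365.4 and 589.4 CPM (4.10 ± 0.32). Myl4 stood at 23.9, 20.1 and 18.9 CPM and 118.6, 152.4 and 193.5 CPM (2.86 ± 0.22), and Tnnt2 at 1.20, 0.571 and 1.74 CPM and 12.3, 26.3 and 43.8 CPM (4.52 ± 0.56). All 3 lay above WT in all 6 libraries, and the promoters of Myl4 and Tnnt2 are those with the E-box above. Mymk, myomaker, which fuses myoblasts, stood at 4.52, 1.28 and 2.03 CPM and 25.98, 67.5 and 134.5 CPM (4.80 ± 0.62, and 5.47 without WT replicate 1). Myog, myogenin, which starts differentiation, stood at 30.4, 15.8 and 31.0 CPM and 37.8, 80.2 and 135.7 CPM (1.70 ± 0.43).

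Satellite cell and myoblast genes had no common direction, with 5 rises and 6 falls among 27 (median -0.02, or 0.57 with library totals). Pax7, the defining factor of the satellite cell, stood at 3.23, 3.57 and 2.13 CPM and 1.90, 4.28 and 6.12 CPM and did not pass (0.51 ± 0.39, adjusted p = 0.29, while library totals gave 1.11 with an adjusted p of 0.022). Myf5, a factor of activated cells, rose from 2.40, 0.999 and 1.74 CPM to 6.25, 13.8 and 20.1 CPM (2.88 ± 0.38). Myod1, the myoblast factor, stood at 93.1, 44.2 and 78.0 CPM and 34.4, 42.8 and 70.5 CPM (-0.59 ± 0.30, adjusted p = 0.12). That difference passed without WT replicate 2 (-0.84, adjusted p = 0.046) and turned to 0.02 with library totals. Vcam1, an adhesion protein of satellite cells and inflamed vessels, rose from 6.08, 9.71 and 13.4 CPM to 34.1, 44.6 and 61.3 CPM (2.24 ± 0.25).

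Genes of mature fast fibres fell in 19 of 20 tested (median -1.68), and 22.7% of all genes fell. Myh4, the IIB myosin that dominates this muscle, stood at 48980, 47650 and 53070 CPM in WT and 8481, 12230 and 17080 CPM in p16-null DMD (-1.96 ± 0.26, adjusted p = 2.4e-05). Actn3, alpha-actinin-3 of fast Z-discs, stood at 10570, 9061 and 9430 CPM and 674.6, 1246 and 3709 CPM (-2.36 ± 0.46), and Mylk2, the kinase of skeletal myosin light chains, at 1211, 1150 and 1225 CPM and 86.8, 167.8 and 328.3 CPM (-2.58 ± 0.32). The list summed to between 92360 and 104900 TPM in WT and between 50660 and 79360 in p16-null DMD, so the labelled tissue carried its defining genes in every library. The slow-fibre list was mixed, with 7 rises and 4 falls among 19 (median 0.92; 2 falls with library totals). The falls were Myl3 (-1.4), Tead1 (-1.23), Sox6 (-1.21) and Mybpc1 (-1.2). Casq2, cardiac and slow calsequestrin, rose from 17.1, 28.1 and 8.71 CPM to 163.2, 230 and 259.6 CPM (3.61 ± 0.37), and Sln, sarcolipin, which slows the calcium pump, from 7.74, 5.85 and 0.581 CPM to 18.4, 58.7 and 114.3 CPM (3.78 ± 0.73, and 4.44 without WT replicate 1). Myh7, the slow myosin itself, did not pass at 0.22 (-0.12 without WT replicate 3).

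Of 36 genes of excitation, calcium release and water transport 26 fell and 3 rose (median -1.44). Clcn1, the chloride channel that stabilises the resting membrane, stood at 139.8, 143.4 and 130.2 CPM and 15.5, 25 and 39.1 CPM (-2.39 ± 0.23), and Scn4a, the adult sodium channel, at 350.2, 296.2 and 292.1 CPM and 63.4, 78.1 and 91.0 CPM (-2.01 ± 0.15). Atp1b2, a subunit of the sodium pump, fell from 454.3, 316.7 and 487.8 CPM to 27.4, 43.8 and 89.5 CPM (-2.95 ± 0.32). The voltage sensor Cacna1s (-1.57 ± 0.21) and the calcium release channel Ryr1 (-1.45 ± 0.22) fell by less. Of 22 genes of the neuromuscular junction and of denervation 11 rose and 2 fell (median 1.20; 1 fall without WT replicate 1 or 2). Musk, the kinase that gathers acetylcholine receptors, stood at 8.11, 5.28 and 10.8 CPM and 21.1, 43.5 and 67.7 CPM (2.43 ± 0.45), and Runx1, a factor induced by denervation, at 9.31, 8.14 and 3.19 CPM and 22.01, 26.8 and 64.6 CPM (2.32 ± 0.43).

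The dystrophin complex and membrane repair list had 16 falls and 6 rises among 29 genes, with a median of -0.44 that turned to 0.15 with library totals. Sgcb, beta-sarcoglycan, stood at 341, 372.2 and 356.1 CPM and 111.7, 119.6 and 144.1 CPM (-1.53 ± 0.12), and Nos1, the nitric oxide synthase docked on the complex, at 16.7, 20.7 and 22.5 CPM and 2.18, 4.96 and 7.43 CPM (-2.04 ± 0.31). Neither overlapped WT. Utrn, utrophin, the relative that can stand in for dystrophin, stood at 47.6, 67.8 and 77.5 CPM and 51.5, 81.1 and 135.4 CPM and did not pass (0.49 ± 0.33, adjusted p = 0.23), while library totals gave 1.09 with an adjusted p of 0.016. Anxa2, an annexin of membrane repair, rose from 58.2, 75.5 and 66.8 CPM to 173.8, 245.3 and 324.9 CPM (1.88 ± 0.20).

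Energy metabolism genes mostly fell across pathways under TMM. Of 32 glycolysis and glycogen genes 26 fell and 4 rose (median -1.67). Pygm, the glycogen phosphorylase whose lack causes McArdle disease, stood at 10500, 9264 and 9453 CPM and 902.5, 1750 and 3473 CPM (-2.29 ± 0.35), Pfkm, muscle phosphofructokinase, at 3876, 3671 and 3227 CPM and 545, 749.4 and 1102 CPM (-2.21 ± 0.22) and Phkg1, a subunit of phosphorylase kinase, at 170.3, 171.6 and 160.9 CPM and 10.8, 21.3 and 38.7 CPM (-2.80 ± 0.28). The 4 rises included isoforms that are not specific to muscle. Hk1, the hexokinase of most tissues, rose from 20.3, 16.1 and 20.9 CPM to 38.4, 43.1 and 48.4 CPM (1.16 ± 0.14), and Pfkp, the platelet form of phosphofructokinase, from 6.91, 6.14 and 7.45 CPM to 16.9, 19.7 and 21.97 CPM (1.5 ± 0.16). All 6 libraries lay on the same side of WT for these 5 genes.

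Of 32 genes of the TCA cycle and its entry 30 fell and 1 rose (median -1.38). Sdha, a subunit of succinate dehydrogenase, stood at 765.1, 841.1 and 784.2 CPM and 205.6, 242 and 309.9 CPM (-1.71 ± 0.15), and Idh3a, of isocitrate dehydrogenase, at 567.2, 607.8 and 506.1 CPM and 129.4, 170.8 and 235 CPM (-1.70 ± 0.18). The gene that rose was Me2, a malic enzyme, from 7.47, 2.85 and 4.74 CPM to 16.7, 21.9 and 37.8 CPM (2.20 ± 0.32). Of 31 genes of fatty acid use 26 fell and 2 rose (median -1.20). Acadm, the medium-chain dehydrogenase, stood at 554.1, 661.1 and 422.4 CPM and 128.7, 152.8 and 235.7 CPM (-1.73 ± 0.23), and Ppargc1a, the coactivator that drives mitochondrial genes, at 14.01, 18.6 and 14.04 CPM and 3.98, 5.47 and 5.98 CPM (-1.55 ± 0.24). Cpt1a, the liver form of the carnitine transferase, rose from 7.28, 10.8 and 14.04 CPM to 22.02, 31.7 and 41.6 CPM (1.51 ± 0.27). With library totals the medians of these 3 lists were -1.08, -0.78 and -0.59, with 22, 27 and 20 falls.

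Genes of muscle wasting mostly lay below WT under TMM. Of 26 atrophy and autophagy genes 14 fell and 2 rose, with a median of -0.66 that was -0.06 with library totals and 0.11 with TPM. Fbxo32, the ubiquitin ligase atrogin-1, stood at 189.9, 146 and 190.1 CPM and 25.2, 45.1 and 63.9 CPM (-2.03 ± 0.23). Trim63, the ligase MuRF1, stood at 271, 306.7 and 333.9 CPM and 85.8, 119.2 and 188.2 CPM (-1.28 ± 0.24, adjusted p = 0.00038 and 0.051 by limma on log2(TPM + 1)), and Asb2, an adaptor of a ubiquitin ligase in muscle, at 1126, 752.1 and 833.5 CPM and 142.1, 184.7 and 257.2 CPM (-2.24 ± 0.21). All 3 lay below WT in all 6 libraries. The 2 rises became 1 without WT replicate 1, 2 or 3. Lysosomal genes rose in 17 of 35 and fell in 3 (median 0.54), with 1 fall without WT replicate 1 or 3. Ctss, cathepsin S, a protease of antigen-presenting cells, rose from 28.9, 29.6 and 32.5 CPM to 104.1, 146.9 and 239.6 CPM (2.33 ± 0.27).

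Among other signals, 12 of 19 circadian clock genes fell and none rose (median -0.70, but -0.10 with library totals and 0.04 with TPM). Hlf, an output factor of the clock, stood at 13.6, 13.99 and 18.3 CPM and 3.38, 5.67 and 8.28 CPM (-1.43 ± 0.27, with an adjusted p of 0.00042 and 0.0625 by limma on log2(TPM + 0.1)). Nr1d1, the repressor REV-ERBalpha, stood at 258.4, 196.1 and 245.2 CPM and 98.0, 132.2 and 173.7 CPM (-0.80 ± 0.18, adjusted p = 0.0018), which was -0.19 with library totals (adjusted p = 0.347). The time of day of sampling is not given by the sources used here. Stress genes split evenly, with 8 rises and 8 falls among 28 (median 0.00, or 0.61 with library totals), and 4 falls without WT replicate 2. Mt1, a metallothionein, rose from 0.0922, 0.143 and 0.194 CPM to 0.731, 2.47 and 6.26 CPM (4.35 ± 1.01) and Hmox1, heme oxygenase, from 14.5, 18.4 and 27.3 CPM to 55.4, 104.4 and 189.4 CPM (2.58 ± 0.45). Atf4, the factor of the integrated stress response, fell from 556.8, 508.3 and 490.3 CPM to 166.9, 203 and 258 CPM (-1.35 ± 0.16). Other genes of that response in the list went both ways. Asns (2.24), Phgdh (2.44) and Psat1 (2.38) rose, while Chac1 (-3.11) and Atf3 (-1.72) fell.

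Of 24 immediate early genes 6 rose and 4 fell (median 0.12; 3 rises without WT replicate 1). The orphan receptors Nr4a1 and Nr4a3, induced by contraction, fell from 361.5, 395.7 and 341.9 CPM to 40.0, 73.7 and 104.9 CPM (-2.33 ± 0.27) and from 53.7, 61.2 and 78.0 CPM to 4.30, 13.9 and 17.4 CPM (-2.31 ± 0.46). In DMD, Nr4a3 stood at 6.82, 63.2 and 49.1 CPM, and its difference from p16-null DMD of -1.62 ± 0.46 did not pass (adjusted p = 0.53). Both insulin-like growth factors rose. Igf1, which promotes fibre growth and repair, stood at 36.3, 49.1 and 71.7 CPM and 105.5, 136.4 and 221.8 CPM (1.53 ± 0.37), and Igf2, a fetal growth factor, at 45.0, 36.5 and 45.0 CPM and 109.9, 190.7 and 382.7 CPM (2.49 ± 0.41). Both belong to a list of IGF and Wnt genes in which 12 of 31 rose and 3 fell (median 0.58).

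Markers of other cell types that a muscle section can hold were read as lists. Adipocyte genes rose in 14 of 22 and fell in 3 (median 1.10), and Adipoq, adiponectin, stood at 23.9, 18.1 and 35.9 CPM and 26.1, 206.1 and 400.7 CPM (2.96 ± 0.70), with the lowest dystrophic library inside the WT range. The summed TPM of that list was 1018 to 1089 in WT and 1416 to 6602 in p16-null DMD. Endothelial genes had 3 rises and 6 falls among 23 (median 0.04), but 14 rises and 2 falls with library totals (median 0.65). The 3 rises were Plvap (1.43), Vwf (0.63) and Pecam1 (0.44). Vegfa, a vessel growth factor that fibres make, fell from 300, 299.5 and 249.5 CPM to 60.9, 98.8 and 154.9 CPM (-1.46 ± 0.22). Kdr, its receptor on endothelium, stood at 86.5, 77.7 and 54.3 CPM and 31.7, 41.5 and 63.1 CPM (-0.70 ± 0.22, adjusted p = 0.015), a fall that did not pass without WT replicate 1 (-0.56, adjusted p = 0.0916) or WT replicate 2 (-0.65, adjusted p = 0.0568), nor with library totals (-0.09), and that turned to 0.03 by limma on log2(TPM + 1).

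Smooth muscle and pericyte genes, a list that also holds Acta1 and Des of skeletal fibres, had 3 rises and 5 falls among 19 (median -0.19, or 0.42 with library totals), and Acta2, smooth muscle actin, did not pass at 159.1, 129.6 and 168.4 CPM and 138.4, 185.8 and 218.6 CPM (0.25 ± 0.17, or 0.86 with an adjusted p of 0.0011 with library totals). Schwann cell genes had 6 rises and no fall among 17 (median -0.24, or 0.37 with library totals). Gfap, an intermediate filament of non-myelinating and injured glia, had no count in WT and 0.185, 0.841 and 2.51 CPM, at least 12-fold higher. The 4 tested genes of oxygen carriers, myoglobin (Mb) of the fibres and 3 globins of red cells, all fell. Hba-a2 stood at 739.1, 585.9 and 617.5 CPM and 112.9, 162.1 and 218 CPM (-1.95 ± 0.21) and Hbb-b1 at 571.7, 450.5 and 488.9 CPM and 103, 139.1 and 184.3 CPM (-1.84 ± 0.24), though globin copies can share reads. The part of blood left in the vessels in these values was not tested.

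**Figure D3:**
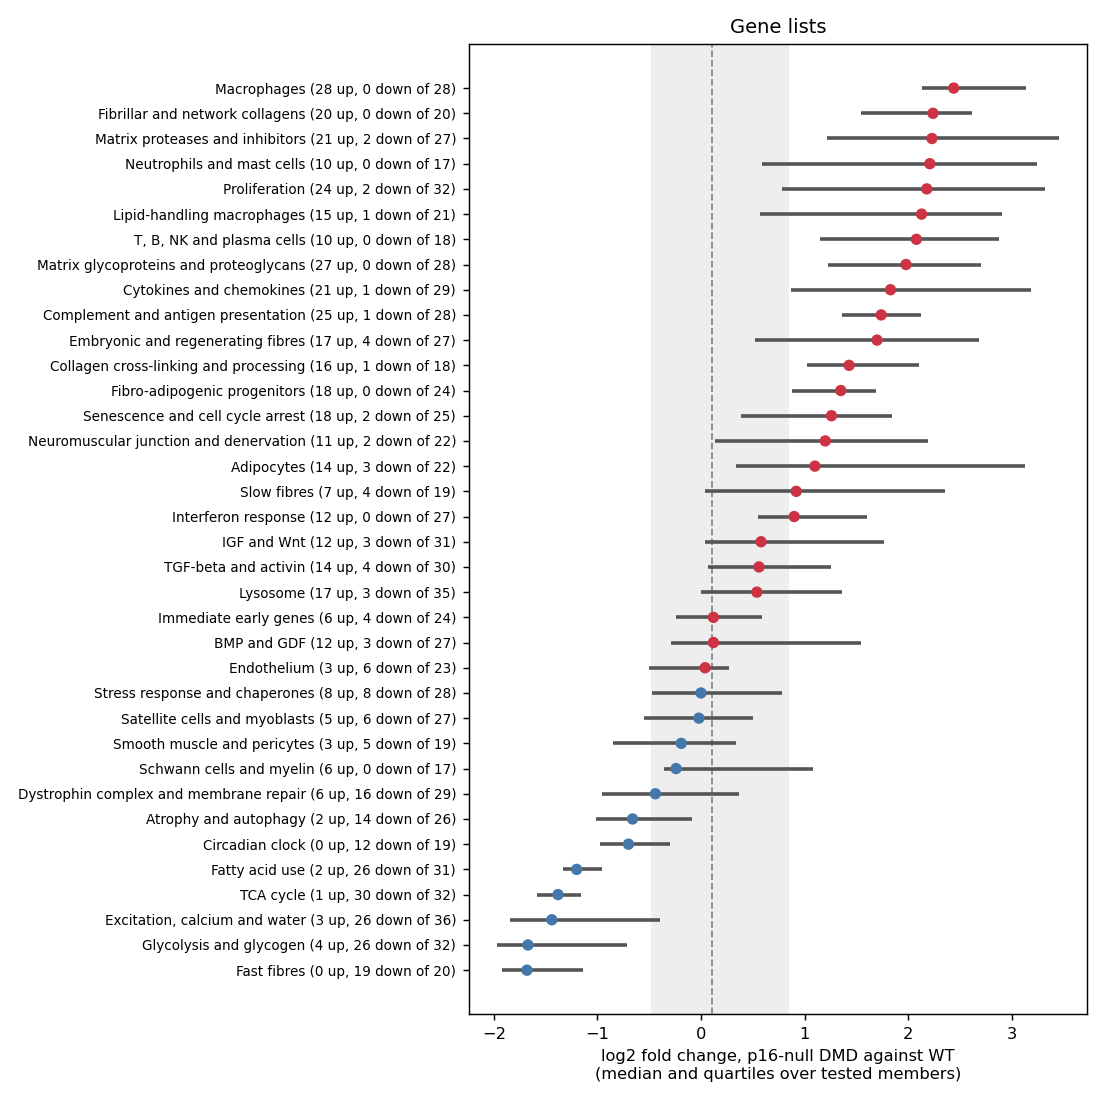
Median log2 fold change of p16-null DMD against WT (points, red above 0 and blue below) with quartiles (lines) over the tested members of each list with at least 5 of them, and beside each name the members that rose and fell. The dashed line and the grey band give the median (0.11) and quartiles (-0.47 and 0.84) of all 14801 genes, above which lie macrophages (2.44) and collagens (2.24) and below which lie fast fibres (-1.68) and glycolysis (-1.67).

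Families were also formed from gene symbols alone, 40 of them with at least 5 tested members. By size of the median the highest were the metalloproteinases (2.24 over 16 genes, 11 rises and 1 fall), C-type lectins (2.02 over 20), collagens (1.95 over 39, with 30 rises and 2 falls), cathepsins (1.93 over 13) and S100 proteins (1.66 over 10). The lowest were subunits of complex III (-1.34 over 10), ATP synthase (-1.33 over 16), complex IV (-1.28 over 13) and complex I (-1.27 over 34). All 34 complex I entries fell, from -0.82 to -1.72. Ndufs1, its largest subunit, stood at 515.4, 711.2 and 537.7 CPM and 139.2, 160.6 and 251.5 CPM (-1.72 ± 0.22). With library totals 28 of the 34 fell. In complex IV, Cox6a1, the form of subunit 6A used outside heart and skeletal muscle, rose from 68.6, 59.1 and 63.3 CPM to 83.8, 86.9 and 95.8 CPM (0.47 ± 0.11) while 9 members fell.

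By tightness, the cytosolic ribosomal proteins came first, with an interquartile range of 0.30 over 89 genes and a median of 0.23 (0.85 with library totals). The member that fell was Rpl3l, the form of ribosomal protein L3 specific to striated muscle, from 504.5, 469.3 and 405 CPM to 107.7, 138.6 and 183.2 CPM (-1.70 ± 0.18). Proteasome subunits followed, with an interquartile range of 0.35 over 34 genes and a median of -0.41 that turned to 0.20 with library totals and 0.35 with TPM. Psmb8, a subunit of the immunoproteasome, lay at the top of that family, from 11.6, 7.28 and 7.45 CPM to 14.7, 25 and 41.6 CPM (1.56 ± 0.30). Mitochondrial ribosomal proteins had an interquartile range of 0.41, with 63 of 70 falling (median -0.86, and 25 falls with library totals). The widest families were sodium channels (3.16), with Scn4b, an accessory subunit, lowest at -2.48, and chemokine receptors (2.66).

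**Figure D4:**
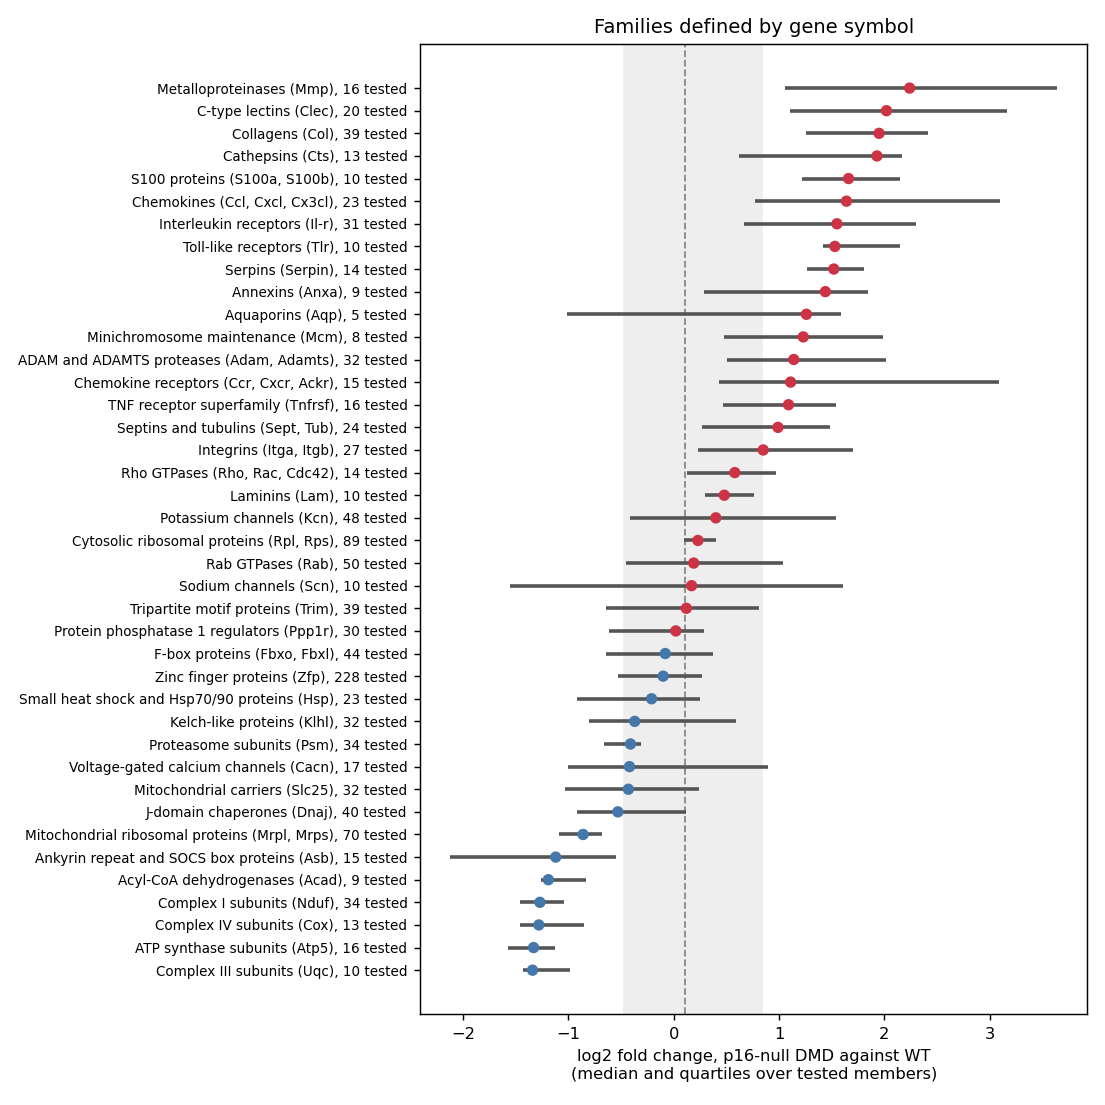
Median log2 fold change of p16-null DMD against WT with quartiles for the 40 families defined by symbol, drawn as for the gene lists, with the number of tested members beside each name. Metalloproteinases (2.24) lie at the top and complex III subunits (-1.34) at the bottom, and cytosolic ribosomal proteins and proteasome subunits have the shortest lines.

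Each list was averaged within a library as log2(CPM + 0.5), and the 6 p16-null DMD libraries differed most in the lists of adipocytes (a range of 2.16), macrophages (1.54), proliferation (1.41) and slow fibres (1.32). Other immune lists ranged less, with 0.34 for T, B, NK and plasma cells and 0.54 for complement and antigen presentation. Macrophage genes averaged 6.95, 5.89, 5.41, 5.87, 6.36 and 5.47 in replicates 1 to 6 against 3.53 to 3.67 in WT. Replicates 1 and 5 stood highest, as for Spp1, and the lysosome list stood highest in the same replicates (7.03 and 6.84). Proliferation genes ran from 1.71 in replicate 3 to 3.13 in replicate 1, against 1.22 to 1.41 in WT. Adipocyte genes averaged 4.67, 6.06, 6.63, 4.47, 5.38 and 6.20, against 4.24 to 4.53 in WT. Replicate 4 thus lay inside the WT range and replicate 3 farthest above it.

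Fibre genes had another order. Embryonic and regenerating genes averaged 6.32, 6.99, 7.5, 7.17, 6.75 and 7.53 in replicates 1 to 6, against 5.11 to 5.42 in WT, and replicates 1 and 5 were the lowest. Slow-fibre genes averaged 5.39 and 5.47 in replicates 1 and 5, inside the WT range of 4.63 to 5.91, and 6.32 to 6.72 in the other libraries. Collagens and TCA genes varied less than these, with ranges of 0.77 and 0.52. Collagens ran from 7.77 to 8.54, against 6.05 to 6.10 in WT, and TCA genes from 6.90 to 7.41, against 8.22 to 8.44. On the principal components of the 12 libraries of 9 months the first, with 56.9% of the variance, set WT (-104.0 to -112.2) apart from all dystrophic libraries (27.5 to 55.3). The second, with 9.65%, ran from -42.4 in p16-null DMD replicate 6 to 53.2 in replicate 1. These orders describe single libraries and were not tested.

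**Figure D5:**
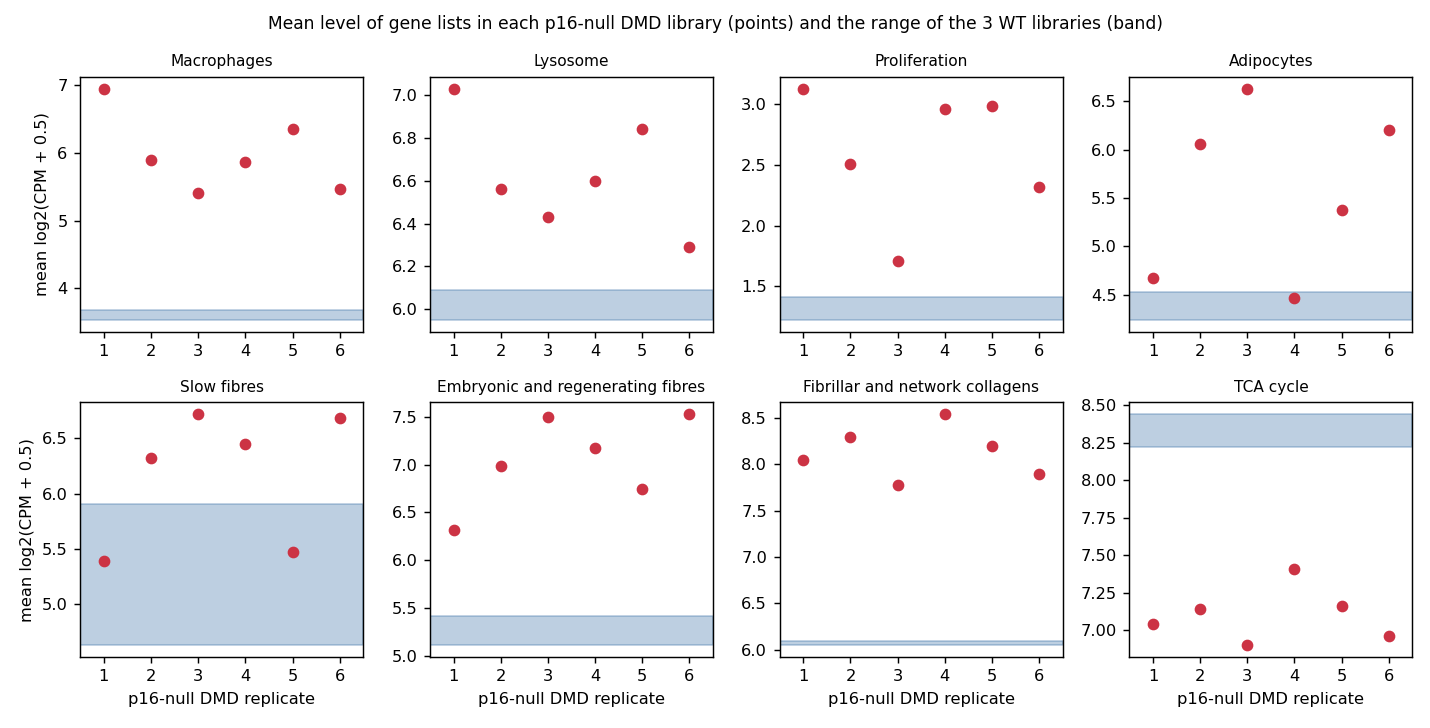
Mean log2(CPM + 0.5) of the tested members of 8 gene lists in each p16-null DMD library (points, by replicate number on the x axis), with the range of the 3 WT libraries as a band. Macrophage, collagen, embryonic-fibre and TCA points all lie outside the band, while 1 adipocyte point and 2 slow-fibre points fall within it.

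The comparison of DMD with WT shares the WT libraries, so its values are given side by side and not as a repeat. In that comparison 48.3% of genes passed. Log2 fold changes for DMD and for p16-null DMD were -1.92 ± 0.22 and -1.71 ± 0.18 for Dmd, -6.29 ± 0.77 and -5.22 ± 0.54 for Aqp4, and 5.37 ± 0.91 and 7.10 ± 0.95 for Spp1. For Col1a1 they were 2.64 ± 0.42 and 3.11 ± 0.40, for Myh3 6.87 ± 0.50 and 7.05 ± 0.49, for Cdkn1a 2.64 ± 0.42 and 2.97 ± 0.40 and for Myh4 -1.80 ± 0.32 and -1.96 ± 0.26. Differences between the dystrophic groups were tested directly. That of Spp1 was 1.72 ± 0.67 (adjusted p = 0.83), that of Gdf5 0.54 ± 0.62 (adjusted p = 0.99) and that of Ccl2 -2.04 ± 0.51 (adjusted p = 0.43). With 3 DMD libraries a difference that does not pass does not show that the groups are alike.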

How the data were processed

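RNA of 18 libraries of rat tibialis anterior was extracted with RNeasy columns and prepared with TruSeq kits, per the labels' protocols. The authors deposited 1 table of estimated counts per gene, not normalized, beside TPM, which are scaled for gene length and library total. The submitters' processing notes name Trimmomatic, FastQC, STAR 2.7.10b, RSEM 1.3.3 and the build mRatBN7.2, with no role or order. The annotation release and the use of strand are not given by the sources used here, so overlapping and antisense genes cannot be told apart and near-identical genes may share reads.

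Expected counts were rounded to whole numbers (4.50% of values were not whole). The 12 libraries of 9 months were fitted together in edgeR 4.0.16 (R 4.3.3), with filterByExpr, TMM scaling and the quasi-likelihood test, whose adjusted p is Benjamini-Hochberg over all 14801 genes. The SE of a log2 fold change is its size over the square root of F. Groups came from the genotype and age labels. All columns of the table had a sample (0 were left out), and 7162 of 30560 entries had no symbol. For a gene with 0 counts in a group the fold is a bound against 3 counts over that group, and for 1 to 3 counts it is a ratio with an exact 95% counting interval. The alternatives were RLE scaling, library totals, leaving out the 50 most abundant genes, DESeq2 1.42.0, a robust fit, limma 3.58.1 on log2(TPM + 1) and log2(TPM + 0.1), no filter, a filter of 5 CPM in 3 libraries, other sets of libraries, a replicate block, a 2-fold minimum and each library left out.

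Named genes were Dmd, Cdkn2a and the 4 markers, and, among called genes with a symbol of a named type, log2 CPM averaging 2 or more and no overlap of the groups, the 8 highest and 8 lowest changes, the 8 rises and 8 falls with the smallest p, and the 5 smallest and 5 largest SDs over the p16-null DMD libraries among changes of at least 4-fold. From each list up to 4 members with the smallest p were eligible, and members that define it by role. Some genes that meet this rule are not reported here. Members that went against their list or did not pass were named after their values were seen. The comparison, the lists and the families were chosen with earlier results of these data known, so the lists carry no test and are set beside the counts over all genes. Figures were drawn with matplotlib 3.10.9, and tables were made with numpy 2.4.6, pandas 2.3.3 and scipy 1.17.1.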

Additional observations from a re-analysis of the deposited data

Results flagged for a closer look

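Among 145 of the genes named here, 4 had 1 p16-null DMD library that stood apart from the other 5 by Dixon's criterion. Chance meets that criterion in about 1 of 20 groups. Adcy1, an adenylyl cyclase, stood at 6.47 CPM in replicate 5 and at 3.20 to 4.22 CPM in the others. Nr4a3, an orphan receptor induced by contraction, stood at 4.30 CPM in replicate 1 and at 12.6 to 17.4 CPM in the others. Smad3, a transducer of TGF-beta signals, stood at 69.6 CPM in replicate 4 and at 39.7 to 49.3 CPM in the others. AC239701.1 stood at 0.0456 CPM in replicate 4, from 1 count, and at 0 in the others. Adcy1, Nr4a3 and Smad3 kept their call against WT without any single library.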

How the results depend on the processing

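The split between rises and falls depended on scaling. With library totals there were 8071 rises and 1251 falls, with limma on log2(TPM + 1) 8818 and 983, and on log2(TPM + 0.1) 9036 and 970. Of the 7432 called genes 5324 were kept under library totals and 772 changed sign, 10 of them with a call. A 2-fold minimum left 2776 rises and 1445 falls, 4221 genes in all. The other planned settings gave 6620 to 7794 genes, except the replicate block, with 6100 (3328 rises and 2772 falls). Deviations of same-numbered p16-null DMD and WT libraries correlated at 0.026, 0.042 and -0.002, and those of unlike number at -0.103 to 0.064. The numbers thus gave no sign of pairing, but with so few pairs a shared batch or litter cannot be told from this. Leaving out 1 library gave 6364 to 7388 genes, with 3429 to 4007 rises and 2935 to 3381 falls. Against DMD the count of 1 became 15 with DESeq2 and 0 with the replicate block, and it ran from 1 to 85 with 1 library left out. Myod1, not called, turned from -0.59 to 0.02 with library totals and to 0.18 and 0.19 with limma on log2(TPM + 1) and log2(TPM + 0.1), P4ha1 from -0.44 to 0.16, 0.29 and 0.30 with the same settings, and Kdr from -0.70 to 0.03 with both TPM fits. Without WT replicate 3 Fmod, Isg15 and Myh7, none of them called, turned to -0.03, -0.26 and -0.12. Their highest values, without WT replicate 2, were 0.58, 1.07 and 0.45. The cause was not tested. Of 219 list counts and named genes, 175 kept their size or call with library totals and 212 with the replicate block. WT has 3 libraries, and genes at 0 there give bounds only.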
